A study of Mus musculus with 4 samples.

Results

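Lysosomal cathepsins and their cystatin inhibitors were followed in brain microglia of 20 mice by single-cell RNA sequencing. The genes were 8 cathepsins (Ctsa, Ctsb, Ctsc, Ctsd, Ctsh, Ctsl, Ctss and Ctsz) and 2 cystatins (Cstb and Cst3). They were taken by symbol from the deposited gene table, where all 10 were found among 19737 genes. The choice of genes was made with earlier results of these data known. All mice were homozygous for a transferrin receptor allele with a humanized apical domain (TfRmu/hu). Of the 20 mice, 8 carried no other allele (WT;TfRmu/hu, called WT here) and 12 were also homozygous for the AppSAA knock-in (AppSAA;TfRmu/hu, called AppSAA here), a model in which amyloid plaques form. Mice received 10 mg/kg intravenously of 1 of 3 agents. These were ATV:ISO (an isotype control on the transferrin receptor-binding ATV backbone), 4D9 (an activating antibody to the microglial receptor TREM2, without ATV) or ATV:4D9 (the same TREM2 antibody with the ATV Fc). There were 4 mice in each of 5 groups, which were WT given ATV:ISO, WT given ATV:4D9, and AppSAA given ATV:ISO, 4D9 or ATV:4D9. WT mice given 4D9 were not part of the design. Tissue was taken 1 day after dosing. The deposited table names the isotype arm ATV:DNP02, which was read as ATV:ISO. That table records 1 mouse, replicate 4 of WT given ATV:ISO, as female and all others as male. The study's summary lists AppSAA mice as males aged 8 months and WT mice as of mixed sex, and the age of the WT mice in this experiment was not clear from it. The source texts differ on the sort (CD11b+ cells with or without CD45) and on the tissue (cortex with or without hippocampus).

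Cathepsins are proteases of endosomes and lysosomes, the compartments in which microglia break down engulfed debris and protein aggregates. Most of those followed here are cysteine proteases, while Ctsd is an aspartic protease and Ctsa a serine carboxypeptidase that also protects neuraminidase and beta-galactosidase. Cathepsins are made as inactive proenzymes and are sorted to lysosomes largely through mannose 6-phosphate receptors. Cystatins bind the active site of cysteine cathepsins. Cystatin B (Cstb) works inside the cell, and cystatin C (Cst3) is secreted. Many lysosomal genes carry a CACGTG-containing element (the CLEAR element) that is bound by the transcription factors TFEB, TFE3 and MITF. Microglia near amyloid plaques are known to raise several of these genes, among them Ctsb, Ctsd, Ctsl and Ctsz, along with the microglial cystatin Cst7.

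In the GRCm38 annotation the 10 genes lie apart on 7 chromosomes. Ctsa (chr2:164832873-164841032, plus strand), Ctsz (chr2:174427493-174439039, minus) and Cst3 (chr2:148871722-148875692, minus) share chromosome 2. Ctsc (chr7:88278085-88310888, plus) and Ctsd (chr7:142375911-142388038, minus) share chromosome 7. The others are Ctsb (chr14:63122462-63145923, plus), Ctsh (chr9:90054152-90076089, plus), Ctsl (chr13:64359337-64370890, minus), Ctss (chr3:95526786-95556403, plus) and Cstb (chr10:78425669-78427622, plus). Genes on the opposite strand overlap Ctsa (Neurl2 and Pltp), Ctsb (Fdft1), Ctsc (Gm26522), Ctsl (Gm47123) and Ctsz (Nelfcd). On the same strand, Gm49369 overlaps Ctsd, Gm49230 overlaps Ctsl and the pseudogene Hmgb1-ps5 overlaps Ctss, and these 3 as well as Gm26522 have no row in the deposited table. Where annotated genes overlap, how the counting divided the shared reads was not given in the sources used here, so these counts are uncertain to that extent.

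Promoter windows of 300 bases, from 250 bases before to 50 after the annotated start, were taken from RefSeq (GRCm38.p6) and found for 7 of the 10 genes, with 2 windows for Ctsa and 1 for each of the others. Ctsb, Ctsh and Cstb had no window in the set used here, which does not mean that RefSeq lacks these genes. The letters CACGTG, which read the same on both strands, were found in 1 of the 2 windows of Ctsa and in the windows of Ctsd and Ctsl, and in 7.15% of all 32851 windows. The longer TCACGTGA, which contains CACGTG, was found in the same window of Ctsa and in that of Ctsd, and in 0.974% of all windows. The letters GAGGAAGT, the core bound by the myeloid factor PU.1, were found on either strand in windows of Ctsc and Ctss and in 3.2% of all windows. TATAAA was found in the window of Ctss and in 13.6% of all windows. The Ctsa window with matches (chr2:164833523-164833822) lies inside the gene as spanned above, and the window at the start of that span (chr2:164832622-164832921) had none. The RefSeq starts of Ctsd (142387827) and Ctsl (64370520) also lie inside the spans given above, which are those of the GENCODE annotation. A match says only that these letters are present. The stretches of 30 bases below are printed 5′ to 3′ on the strand of the gene with the matched letters in capitals, because Ctsa, Ctsd and Ctsl were each called higher as a share of UMIs in AppSAA mice and lower with ATV:4D9 in AppSAA mice, and Ctsc was called higher with ATV:4D9 in both genotypes. With ATV:4D9 in WT mice, Ctsd was called higher (0.25) and Ctsl lower (-0.46) as a share of UMIs, and Ctsa was not called (-0.08). Whether the letters bear on any of these changes was not tested. Ctss, which holds GAGGAAGT like Ctsc, was called lower as a share of UMIs with ATV:4D9 in both genotypes. Without CACGTG, Ctss and Cst3 were called lower with ATV:4D9 in AppSAA mice as well. Ctsz, also without CACGTG, was called higher in AppSAA than in WT mice under ATV:ISO (0.96). Each stretch shown ends before the RefSeq start of its window. The GAGGAAGT match in Ctss, which runs across that start, is not printed. The same holds for a second CACGTG match in the Ctsa window with matches, 5 bases after its start. In the GENCODE annotation the Ctsa, second Ctsd and Ctsl stretches overlap an exon and UTR of a transcript with an earlier start, while the Ctsc and first Ctsd stretches lie outside the gene.
Ctsa, chr2:164833743-164833772 (plus, CACGTG): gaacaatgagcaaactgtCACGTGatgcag
Ctsd, chr7:142388048-142388077 (minus, CACGTG): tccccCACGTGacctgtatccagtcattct
Ctsd, chr7:142387908-142387937 (minus, CACGTG): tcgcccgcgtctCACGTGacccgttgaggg
Ctsl, chr13:64370739-64370768 (minus, CACGTG): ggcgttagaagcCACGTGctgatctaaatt
Ctsc, chr7:88277922-88277951 (plus, GAGGAAGT on the opposite strand): tgtcactaactaACTTCCTCaggccacctc

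The 74758 deposited cells were summed into 1 library per mouse, of 2193 to 6126 cells and 17150296 to 102446549 UMIs (unique molecular identifiers, 1 per captured transcript). All 6 microglial markers examined were present in every group, at 11200 to 21850 CPM (the UMIs of a gene, scaled to the same library total in every mouse) in sum. Among them, P2ry12, Tmem119, Cx3cr1, Csf1r and Sall1 also serve below as markers of the homeostatic state. A change in the microglial marker sum therefore cannot be told apart from a change of state. Only 13 cells (0.0174%) held more UMIs of another cell type's markers than of microglial ones. The mean number of UMIs per cell was 8612 in WT mice given ATV:ISO, 16780 in WT given ATV:4D9, 11520 in AppSAA given ATV:ISO, 11926 in AppSAA given 4D9 and 17116 in AppSAA given ATV:4D9. Because total UMIs per cell moved with treatment, the 10 genes were tested both as CPM and as UMIs per cell. Tests were edgeR quasi-likelihood tests over all 14058 genes that passed the count filter, with a gene called at a Benjamini-Hochberg adjusted p under 0.05. All 10 genes passed the filter. Log2 fold changes of CPM include TMM scaling, which moves them up from plain CPM ratios by 0.115 (WT given ATV:4D9), 0.185 (AppSAA given ATV:ISO), 0.195 (AppSAA given 4D9) and 0.255 (AppSAA given ATV:4D9) relative to WT given ATV:ISO. In these sorted cells a change in every cell and a change in which cells were present give the same sum.

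**Figure D1:**
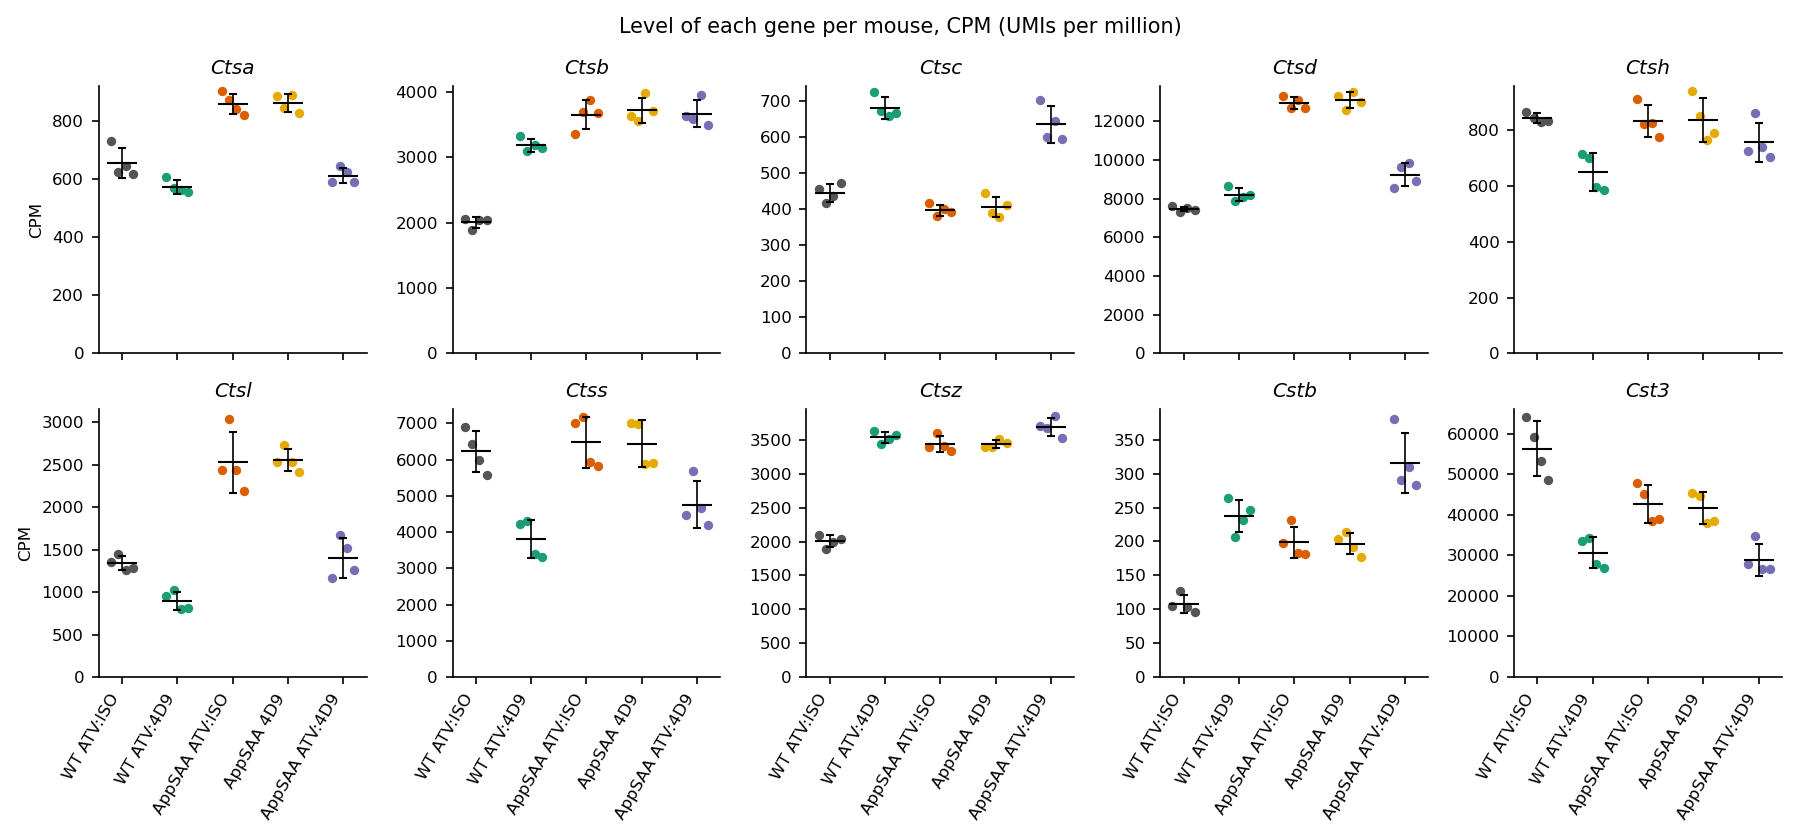
CPM of each of the 10 genes in each mouse (y axis, linear from 0), with 1 point per mouse (replicates 1 to 4 from left to right) and a bar for the mean ± SD of the 4 mice of a group (x axis). Ctsd, Ctsl and Ctsa were highest in the AppSAA mice given ATV:ISO or 4D9, while Ctsc was highest in the 8 mice given ATV:4D9.

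In WT mice, the comparison of ATV:4D9 with ATV:ISO asked what the brain-penetrant TREM2 antibody did to these genes without plaques. The genes split. As a share of all UMIs, Cstb, Ctsz, Ctsb, Ctsc and Ctsd rose, and Cst3, Ctss, Ctsl and Ctsh fell. Of all genes tested, 30.8% were called higher and 32.5% lower, against 5 and 4 of the 10. The median of the 10 was 0.088 on the log2 scale, beside -0.051 for all genes.

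Cstb, the intracellular inhibitor, had 104.0, 127.6, 103.0 and 95.76 CPM in the 4 WT mice given ATV:ISO and 263.9, 207.1, 231.9 and 245.7 CPM in those given ATV:4D9. Every treated mouse was above every control. The log2 fold change was 1.26 ± 0.15 (SE, edgeR adjusted p = 4.01e-07). Ctsz, a carboxypeptidase also known as cathepsin X, rose from 2099, 1894, 1987 and 2042 CPM to 3639, 3436, 3514 and 3570 CPM. The 2 groups were far apart compared with their spread, and the log2 fold change was 0.94 ± 0.08 (edgeR adjusted p = 4.22e-09). Ctsb, which cuts both inside chains and from their carboxyl end, rose by 0.78 ± 0.08 (edgeR adjusted p = 2.82e-08), from 2056, 1880, 2043 and 2041 CPM to 3323, 3089, 3182 and 3144 CPM. Ctsc, the dipeptidyl peptidase that activates granule proteases of immune cells, had 456.4, 416.6, 436.8 and 473.3 CPM with ATV:ISO and 724.8, 672.6, 659.8 and 667.2 CPM with ATV:4D9. Its log2 fold change was 0.73 ± 0.10 (edgeR adjusted p = 2.84e-06), again with no overlap. Ctsd rose by a smaller step, 0.25 ± 0.08 (edgeR adjusted p = 0.00819).

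Cst3, the most abundant of the 10 in UMIs, had 64020, 59250, 53290 and 48610 CPM in WT mice given ATV:ISO and 33540, 34210, 27770 and 26880 CPM in those given ATV:4D9. The lowest control stood above the highest treated mouse. The log2 fold change was -0.77 ± 0.15 (edgeR adjusted p = 0.000129). Astrocytes also express Cst3 strongly. Their markers (4 of 4 in the table, none at 0) summed to 136.1 to 165.0 CPM in WT mice given ATV:ISO, 61.4 to 75.7 in WT given ATV:4D9, 84.01 to 112.3 in AppSAA given ATV:ISO, 76.87 to 110.2 in AppSAA given 4D9 and 62.92 to 93.33 in AppSAA given ATV:4D9, and their part in the Cst3 result was not tested. Between the 2 WT groups, other marker sums were lower with ATV:4D9 without overlap too. These were endothelial (4 of 4 in the table, 18.25 to 24.51 and 9.544 to 13.07 CPM), microglial (20780 to 21850 and 14050 to 15340 CPM), lymphocyte (5 of 5 in the table, 27.2 to 30.5 and 17.07 to 26.06), oligodendrocyte (4 of 4, 57.8 to 71.02 and 34.07 to 46.3) and neuronal markers (4 of 4, 2.246 to 2.826 and 1.169 to 1.525), with none at 0, and their part in the results was not tested. Ctss, an elastin-cutting protease that trims the invariant chain in antigen presentation, fell by 0.60 ± 0.14 on the log2 scale (edgeR adjusted p = 0.00116), from 6229 ± 572.2 to 3811 ± 530.4 CPM (mean ± SD, n = 4). Ctsl, an endopeptidase that also processes other cathepsins, fell by 0.46 ± 0.13 (edgeR adjusted p = 0.00357), from 1337 ± 82.87 to 896.9 ± 107.4 CPM. The fall of the aminopeptidase Ctsh was small (-0.26 ± 0.11, edgeR adjusted p = 0.0483) and its groups overlapped after TMM scaling. That call was lost when any of 14 of the 20 mice was left out (adjusted p 0.0506 to 0.143). Ctsa was at -0.08 ± 0.09 (edgeR adjusted p = 0.476). With library totals in place of TMM, an alternative chosen after seeing the data, Ctsa was at -0.19 (adjusted p = 0.00685). Within the 4 pools the log2 ratios kept their sign for all 10 genes, for example 0.741 to 1.51 for Cstb and -0.806 to -0.703 for Cst3.

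AppSAA mice were compared with WT mice under ATV:ISO to see what the plaque model did without TREM2 antibody. Here 6 of the 10 genes rose, Ctsl, Cstb, Ctsb, Ctsd, Ctsz and Ctsa, and none fell. Of all genes tested, 14.4% were called higher and 13.7% lower (2028 and 1932 genes). With library totals in place of TMM, these were 1512 and 5275 genes, and the 6 genes were still called higher. The median of the 10 was 0.771, beside -0.056 for all genes. Marker sums of several cell types moved with this comparison without overlap. Endothelial markers (4 of 4 in the table, none at 0) summed to 18.25 to 24.51 CPM in WT mice given ATV:ISO, 9.544 to 13.07 in WT given ATV:4D9, 37.53 to 52.39 in AppSAA given ATV:ISO, 38.98 to 49.39 in AppSAA given 4D9 and 13.23 to 26.16 in AppSAA given ATV:4D9. Microglial markers were at 20780 to 21850 CPM in WT and 13820 to 16200 in AppSAA mice given ATV:ISO, lymphocyte markers at 27.2 to 30.5 and 17.65 to 20.57, and neuronal markers at 2.246 to 2.826 and 0.5571 to 1.155. The astrocyte sums given above did not overlap either, and the part of these markers in the results was not tested.

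Ctsl had 1349, 1449, 1263 and 1288 CPM in WT and 2442, 3038, 2436 and 2195 CPM in AppSAA mice. The log2 fold change was 1.11 ± 0.13 (edgeR adjusted p = 1.57e-06). Ctsd, the main lysosomal aspartic protease, had 7604, 7337, 7503 and 7442 CPM in WT and 13310, 12710, 13110 and 12700 CPM in AppSAA mice. The spread in either group was small beside the difference, and the log2 fold change was 0.98 ± 0.08 (edgeR adjusted p = 1.08e-08). Ctsb reached 3354, 3698, 3873 and 3681 CPM, a change of 1.05 ± 0.08 (edgeR adjusted p = 2.83e-09). Ctsz reached 3400, 3602, 3419 and 3334 CPM, a change of 0.96 ± 0.08 (edgeR adjusted p = 1.82e-08). For both, every AppSAA mouse stood above every WT mouse given ATV:ISO. Cstb reached 197.2, 231.8, 183.4 and 181.6 CPM (1.07 ± 0.15, edgeR adjusted p = 1.45e-05). Ctsa changed least of the 6, from 654.4 ± 51.84 to 859.7 ± 35.0 CPM (0.58 ± 0.09, edgeR adjusted p = 5.23e-05).

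Ctsc, in contrast, was at 0.02 ± 0.10 (edgeR adjusted p = 0.902), with 417.4, 381.2, 399.9 and 392.9 CPM in AppSAA mice. With library totals it was at -0.16 (adjusted p = 0.0422), so the sign for Ctsc depended on the scaling. Ctsh (0.17 ± 0.11), Ctss (0.25 ± 0.14) and Cst3 (-0.22 ± 0.15) were not called (edgeR adjusted p = 0.273, 0.213 and 0.294). With the pool as a block, which pairs each AppSAA mouse with the WT mouse of its own pool, these 3 were called, Ctsh and Ctss higher (adjusted p = 0.0101 and 0.00151) and Cst3 lower (adjusted p = 0.0049). That fit called 51.0% of all genes in either direction. With library totals Cst3 was called lower too (-0.40, adjusted p = 0.00663) and Ctsh was at -0.02 (adjusted p = 0.882). Within the pools Ctsh and Ctss were higher in 4 of 4 and Cst3 in 0 of 4.

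In AppSAA mice, ATV:4D9 was compared with ATV:ISO to see what the antibody did where plaques were present. As CPM, Cstb and Ctsc rose and Ctsl, Cst3, Ctsd, Ctsa and Ctss fell, while Ctsb, Ctsz and Ctsh were not called. That is 2 higher and 5 lower of 10, where 27.9% and 27.1% of all genes were called higher and lower. The median of the 10 was -0.228, beside -0.028 for all genes. Microglial (13820 to 16200 and 11200 to 12630 CPM) and endothelial marker sums were lower with ATV:4D9 without overlap, and their part was not tested.

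Ctsc had 704.0, 600.5, 645.3 and 593.8 CPM in AppSAA mice given ATV:4D9. The log2 fold change was 0.75 ± 0.10 (edgeR adjusted p = 3.09e-06), close to the 0.73 seen in WT mice, and the test of the difference between them gave 0.02 ± 0.14 (edgeR adjusted p = 0.953). Cstb had 380.3, 290.2, 310.2 and 283.5 CPM, a change of 0.75 ± 0.15 (edgeR adjusted p = 0.000251), and its lowest treated mouse was above the highest control. Ctsl went down to 1169, 1667, 1516 and 1255 CPM (-0.79 ± 0.13, edgeR adjusted p = 2.98e-05). As plain CPM this range spans that of WT mice given ATV:ISO, without the 0.255 that TMM scaling adds on the log2 scale. Per cell the 2 groups did not overlap, at 21.04 to 25.95 UMIs of Ctsl against 10.55 to 12.2 in WT mice given ATV:ISO. Ctsd went down to 8565, 9659, 9847 and 8936 CPM (-0.42 ± 0.08, edgeR adjusted p = 0.000154), and all 4 mice were below all 4 controls but above all 4 WT mice given ATV:ISO. Ctsa fell by 0.42 ± 0.09 on the log2 scale (edgeR adjusted p = 0.000518). Cst3 had 47880, 45230, 38420 and 39050 CPM with ATV:ISO and 27780, 34660, 26630 and 26550 CPM with ATV:4D9 (-0.50 ± 0.15, edgeR adjusted p = 0.00713). Replicate 2 stood above the other 3 treated mice and below all controls. Ctss was at -0.38 ± 0.14 (edgeR adjusted p = 0.0277). That call was lost without AppSAA ATV:ISO replicate 1 or 2 or AppSAA ATV:4D9 replicate 3 or 4 (-0.365 to -0.292, adjusted p 0.0603 to 0.102). Ctsz was at 0.17 ± 0.08 (edgeR adjusted p = 0.0709), and was called with the pool as a block (adjusted p = 0.00808, where 70.7% of all genes were called) or without AppSAA ATV:ISO replicate 2 or AppSAA ATV:4D9 replicate 4 (0.222 to 0.232, adjusted p 0.0213 to 0.0301). Ctsb was at 0.08 ± 0.08 (edgeR adjusted p = 0.404), with 3628, 3583, 3957 and 3491 CPM in treated mice.

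4D9 without ATV was compared with ATV:ISO in AppSAA mice at the same dose and time. These agents differ in both the binding arms and the Fc. No isotype without ATV was given, so the parts of the arms and of the Fc cannot be told apart. None of the 10 genes was called, with log2 fold changes between -0.03 (Cst3) and 0.04 (Ctsc) and adjusted p of 1. Cstb (-0.01), Ctss (0.00), Ctsz (0.01), Ctsa (0.01), Ctsh (0.02), Ctsl (0.02), Ctsd (0.03) and Ctsb (0.04) lay between them. The share of all genes called was 0.0% in either direction. Per cell, the log2 fold changes of the 10 were 0.01 to 0.08, and again 0 of the 10 and 0.0% of all genes were called. In edgeR 79 genes had an unadjusted p under 0.05, in limma-voom 81, and in DESeq2 66 with 1 gene called. The SE of these differences lay between 0.08 and 0.15, and a p over the threshold does not show that the agents act alike. In the 4 mice given 4D9, Ctsd had 13330, 12610, 13520 and 12990 CPM, Ctsl 2536, 2731, 2537 and 2409 CPM, and Cstb 203.7, 214.2, 192.1 and 176.9 CPM. Each of these ranges overlapped that of the ATV:ISO mice.

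ATV:4D9 and 4D9, which share the TREM2 binding arms and differ in the Fc, did differ in these genes. As CPM, the same 7 genes were called as against ATV:ISO, with Cstb (0.75 ± 0.15, edgeR adjusted p = 0.000242) and Ctsc (0.71 ± 0.10, edgeR adjusted p = 6.46e-06) higher. Ctsl (-0.81 ± 0.13, edgeR adjusted p = 2.33e-05), Ctsd (-0.44 ± 0.08, edgeR adjusted p = 8.14e-05), Ctsa (-0.44), Cst3 (-0.47) and Ctss were lower. Ctsb (0.04 ± 0.08, edgeR adjusted p = 0.662) and Ctsh (-0.09 ± 0.11, edgeR adjusted p = 0.519) were not called. Of all genes, 27.6% were called higher and 26.7% lower. This comparison shares its ATV:4D9 mice with that against ATV:ISO. Microglial marker sums (14900 to 15730 CPM with 4D9) and endothelial ones were again lower with ATV:4D9 without overlap, and monocyte markers (4 of 4, none at 0) were higher, at 5.335 to 8.464 and 9.422 to 12.88 CPM. Their part was not tested. The call for Ctss (-0.39 ± 0.14, edgeR adjusted p = 0.0278) was lost without AppSAA 4D9 replicate 1 or 2 or AppSAA ATV:4D9 replicate 3 or 4 (adjusted p 0.0615 to 0.109). Ctsz (0.17 ± 0.08, edgeR adjusted p = 0.0875) was called with the pool as a block (adjusted p = 0.0115, where 69.9% of all genes were called) or without AppSAA ATV:4D9 replicate 4 (0.23, adjusted p = 0.024). Per cell, 5 genes were higher and 1 lower, where 49.0% and 3.74% of all genes were higher and lower. Cstb (1.22 ± 0.14, edgeR adjusted p = 1.92e-07), Ctsc (1.18), Ctsz (0.62), Ctsb (0.50) and Ctsh (0.38) were higher, and Ctsl was lower (-0.35 ± 0.10, edgeR adjusted p = 0.006). The median of all genes was 0.423, and Ctsh lay below it. Ctsd (0.02), Ctsa (0.03), Ctss (0.08) and Cst3 (0.00) were not called per cell.

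**Figure D2:**
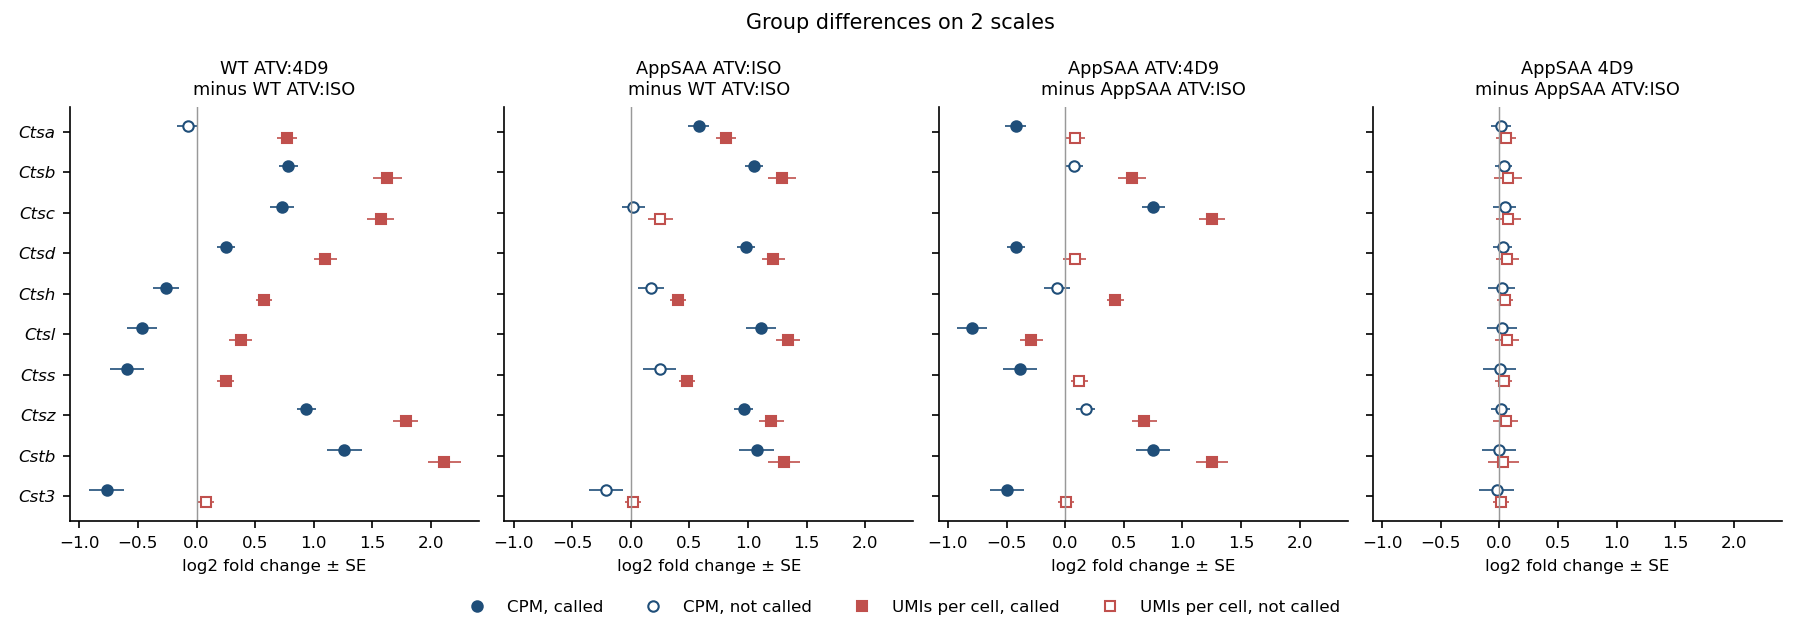
Log2 fold changes (x axis) of the 10 genes (y axis) in 4 group comparisons, as CPM (circles) and as UMIs per cell (squares), with bars for the SE and filled symbols for genes called at an adjusted p under 0.05. On the per-cell scale Cst3 lay near 0 throughout, and no symbol was filled for 4D9 against ATV:ISO.

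With ATV:4D9 on board in both genotypes, 6 of the 10 genes were higher as CPM in AppSAA than in WT mice and none was lower, where 7.84% and 3.98% of all genes were called higher and lower (1102 and 559 genes). With library totals these were 792 and 2201 genes, and 5 of the 10 were called, with Ctsh lost (0.22, adjusted p = 0.0589). Without a count filter 4 were called, with Ctsh (adjusted p = 0.0569) and Ctss (adjusted p = 0.0529) lost. Between these 2 groups microglial marker sums were lower in AppSAA mice without overlap, while monocyte (5.792 to 6.871 CPM in WT and 9.422 to 12.88 in AppSAA mice) and endothelial ones were higher, and their part was not tested. Ctsl led, with 1169 to 1667 CPM in AppSAA against 948.9, 1023, 805.5 and 809.8 CPM in WT mice (0.78 ± 0.13, edgeR adjusted p = 0.000248). Ctsb (0.34 ± 0.08, edgeR adjusted p = 0.00436) and Ctsd (0.31 ± 0.08, edgeR adjusted p = 0.0116) had the smallest of the 6 differences, where under ATV:ISO they were at 1.05 and 0.98. Cstb (0.56 ± 0.15, edgeR adjusted p = 0.0144) lost its call without WT ATV:4D9 replicate 2 or AppSAA ATV:4D9 replicate 1 (0.404 to 0.488, adjusted p 0.0586 to 0.0623). Ctsh (0.36 ± 0.11, edgeR adjusted p = 0.0405) and Ctss (0.46 ± 0.14, edgeR adjusted p = 0.0413) lay near the threshold and lost their calls without any 1 of 7 and of 6 mice (adjusted p up to 0.135). With the pool as a block Ctsa (0.24, adjusted p = 0.000483) and Ctsz (0.20, adjusted p = 0.00766) were called as well, where 31.4% of all genes were called. Ctsa was also called without WT ATV:4D9 replicate 1 (adjusted p = 0.0453). Ctsc (0.05 ± 0.10, edgeR adjusted p = 0.874) and Cst3 (0.06 ± 0.15, edgeR adjusted p = 0.899) were not. Per cell, 3 of the 10 were called higher and none lower, where 3.53% and 2.43% of all genes were called higher and lower and the median of all genes was -0.12. These were Ctsl (0.67 ± 0.10, edgeR adjusted p = 0.000255), Ctss (0.35 ± 0.07, edgeR adjusted p = 0.00383) and Ctsh (0.25 ± 0.07, edgeR adjusted p = 0.0358), the last lost without any 1 of 9 mice (adjusted p 0.0503 to 0.119). Cstb (0.44, edgeR adjusted p = 0.0532), Ctsb (0.23, edgeR adjusted p = 0.32) and Ctsd (0.20, edgeR adjusted p = 0.298) were not called per cell. The block called them too (adjusted p = 0.0104, 0.0302 and 0.0314), with 31.0% of all genes called, and Cstb was also called without any 1 of 3 mice (adjusted p 0.0276 to 0.0448). Ctsa (0.12), Ctsz (0.09), Ctsc (-0.07) and Cst3 (-0.05) were not called per cell.

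The interaction tested whether the effect of ATV:4D9 differed between the genotypes. As CPM it was negative for Ctsz (-0.76 ± 0.11, edgeR adjusted p = 0.000221), Ctsb (-0.71 ± 0.11, edgeR adjusted p = 0.000303) and Ctsd (-0.67 ± 0.11, edgeR adjusted p = 0.000557), and 9.14% of all genes were called in either direction. On that scale Ctsz and Ctsb rose with ATV:4D9 in WT mice and were not called in AppSAA mice. Ctsd rose as CPM in the former and fell in the latter, while per cell it was at 1.10 in WT mice and at 0.08, not called, in AppSAA mice. With the pool as a block 9 of the 10 were called, where 30.5% of all genes were called. Ctsa (-0.35, adjusted p = 0.000425), Cstb (-0.52, adjusted p = 0.0167) and Ctsl (-0.32, adjusted p = 0.0248) joined the negative side. Cst3 (0.27, adjusted p = 0.017), Ctsh (0.20, adjusted p = 0.041) and Ctss (0.22, adjusted p = 0.0402) were positive. Without the block, Cstb was called without AppSAA ATV:4D9 replicate 1 (adjusted p = 0.0227) and Ctsa without WT ATV:ISO replicate 1 (adjusted p = 0.0248), with DESeq2 (adjusted p = 0.0313) or with library totals (adjusted p = 0.0226).

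Counted per cell, ATV:4D9 raised 9 of the 10 above ATV:ISO in WT mice, with 68.2% of all genes called higher and 2.35% lower and a median of all genes of 0.79. Cstb went from 0.923 ± 0.102 to 3.99 ± 0.643 UMIs per cell (mean ± SD, n = 4), Ctsz from 17.3 ± 1.58 to 59.4 ± 6.65, Ctsb from 17.3 ± 1.74 to 53.4 ± 5.53, Ctsc from 3.85 ± 0.459 to 11.4 ± 1.03 and Ctsd from 64.3 ± 5.08 to 137.8 ± 14.99. The log2 fold changes of these 5 genes were 1.10 to 2.11, above the median of all genes. Ctsa (0.77), Ctsh (0.58), Ctsl (0.38) and Ctss (0.25) were called higher too, but none of them exceeded the median of all genes. Cst3 was the exception, at 481.2 ± 18.53 and 508.7 ± 17.88 UMIs per cell (log2 fold change 0.08 ± 0.07, edgeR adjusted p = 0.297). Its level lay between 481.2 and 508.7 UMIs per cell in the means of all 5 groups, while its CPM went from 56290 to 28900.

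**Figure D3:**
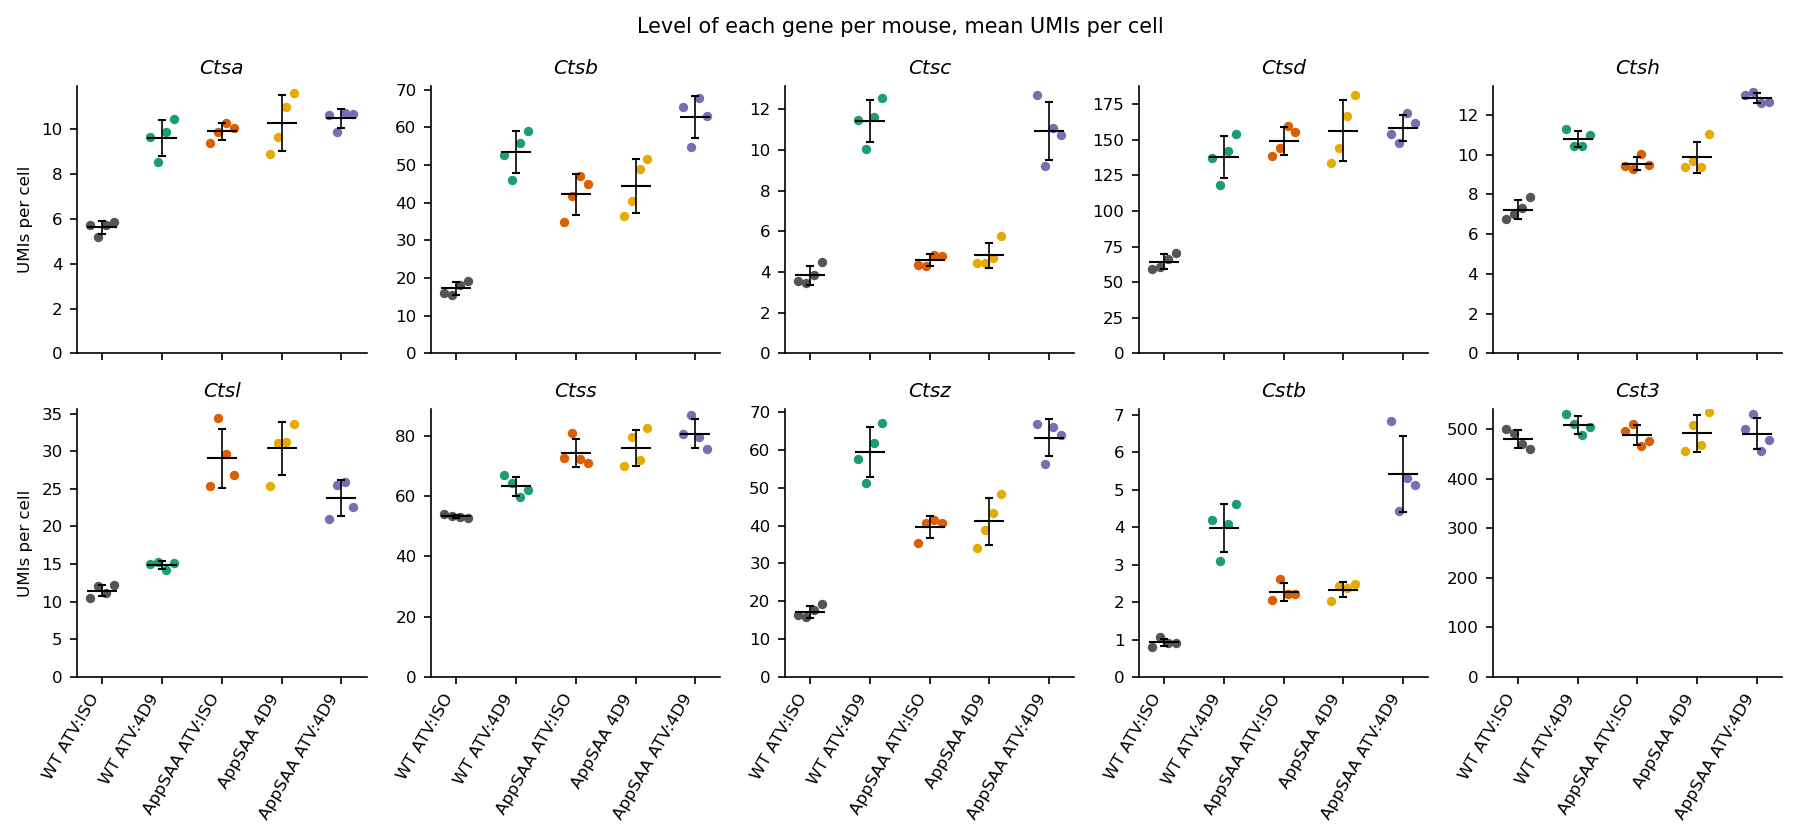
UMIs per cell of each of the 10 genes in each mouse (y axis, linear from 0), with 1 point per mouse and a bar for the mean ± SD of the 4 mice of a group (x axis). Group means of Cst3 lay between 481.2 and 508.7 UMIs per cell, and Cstb, Ctsb, Ctsc and Ctsz were higher with ATV:4D9 than with ATV:ISO in both genotypes.

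For AppSAA against WT mice under ATV:ISO, 8 genes were called higher per cell, where 22.9% of all genes were higher and 1.49% lower. These were Ctsl (1.34), Cstb (1.31), Ctsb (1.29), Ctsd (1.21), Ctsz (1.20), Ctsa (0.82), Ctss (0.48) and Ctsh (0.40), beside a median of all genes of 0.18. Ctsc (0.25 ± 0.11, edgeR adjusted p = 0.112) was called only with the pool as a block (adjusted p = 0.0105, where 44.7% of all genes were called) or without WT ATV:ISO replicate 4 (adjusted p = 0.0388). Cst3 was at 0.02. For ATV:4D9 against ATV:ISO in AppSAA mice, 5 genes were higher per cell and 1 lower, where 52.1% and 3.19% of all genes were higher and lower. Ctsc and Cstb (both 1.25), Ctsz (0.68), Ctsb (0.57) and Ctsh (0.43) were called higher, beside a median of all genes of 0.466. Ctsh lay below that median. Ctsl fell by 0.29 ± 0.10 on the log2 scale (edgeR adjusted p = 0.0204), from 29.0 ± 3.95 to 23.8 ± 2.35 UMIs per cell, a call lost without AppSAA ATV:ISO replicate 2 or AppSAA ATV:4D9 replicate 1 or 4 (-0.265 to -0.197, adjusted p 0.0576 to 0.109). Ctsd, which fell as CPM, had 149.2 ± 9.8 and 157.9 ± 8.99 UMIs per cell (0.08 ± 0.10, edgeR adjusted p = 0.501). Ctsa (0.08), Ctss (0.12) and Cst3 (0.01) were not called either. The per-cell interaction was negative for Ctsz (-1.11), Ctsb (-1.06), Ctsd (-1.02), Cstb (-0.86), Ctsa (-0.69) and Ctsl (-0.66), with 15.6% of all genes called lower and a median of all genes of -0.30. Ctsc (-0.32, edgeR adjusted p = 0.181) joined them with the pool as a block (adjusted p = 0.0232, where 45.7% of all genes were called in either direction).

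The 8 cathepsins together made up 2.10% ± 0.0757 of all UMIs in WT mice given ATV:ISO, 2.16% ± 0.0958 in WT given ATV:4D9, 3.12% ± 0.113 in AppSAA given ATV:ISO, 3.14% ± 0.0676 in AppSAA given 4D9 and 2.48% ± 0.157 in AppSAA given ATV:4D9 (SD, n = 4). The 2 cystatins made up 5.64% ± 0.676, 3.08% ± 0.381, 4.28% ± 0.467, 4.18% ± 0.399 and 2.92% ± 0.387 in the same order. The sum of the 6 cysteine cathepsins per Cst3 UMI was lowest in WT mice given ATV:ISO (0.2145 to 0.2521) and highest in AppSAA mice given ATV:4D9 (0.4639 to 0.5771). These ranges did not overlap. Ctsc per Ctsl was 0.2875 to 0.3675 in WT given ATV:ISO, 0.6573 to 0.8239 in WT given ATV:4D9, 0.1255 to 0.179 in AppSAA given ATV:ISO, 0.1425 to 0.1754 in AppSAA given 4D9 and 0.3603 to 0.6021 in AppSAA given ATV:4D9. The ratio was thus lowest in the plaque model without ATV:4D9 and higher with ATV:4D9 in either genotype. Shares and ratios are given as a description.

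The authors' 6 clusters were used as deposited. They were built from the same expression values, so levels between clusters are a description. By marker lists, clusters 0 and 3 were homeostatic-like (9 of 9 genes higher than in other cells), and cluster 3 was also high in immediate early genes (8 of 8). Cluster 1 was like plaque-associated microglia (10 of 10), cluster 4 was cycling-like (9 of 9) and cluster 5 interferon-like (9 of 9). Cluster 2 was highest for none of the lists. Groups filled the clusters very differently. Clusters 0 and 3 held 60.35% and 35.8% of cells in WT mice given ATV:ISO. Clusters 2 and 4 held 47.78% and 39.95% in WT mice given ATV:4D9. Cluster 1 held 38.26% in AppSAA mice given ATV:ISO, 39.39% with 4D9 and 13.53% with ATV:4D9. In AppSAA mice given ATV:4D9, clusters 2, 4 and 5 held 35.42%, 22.35% and 22.4%.

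**Figure D4:**
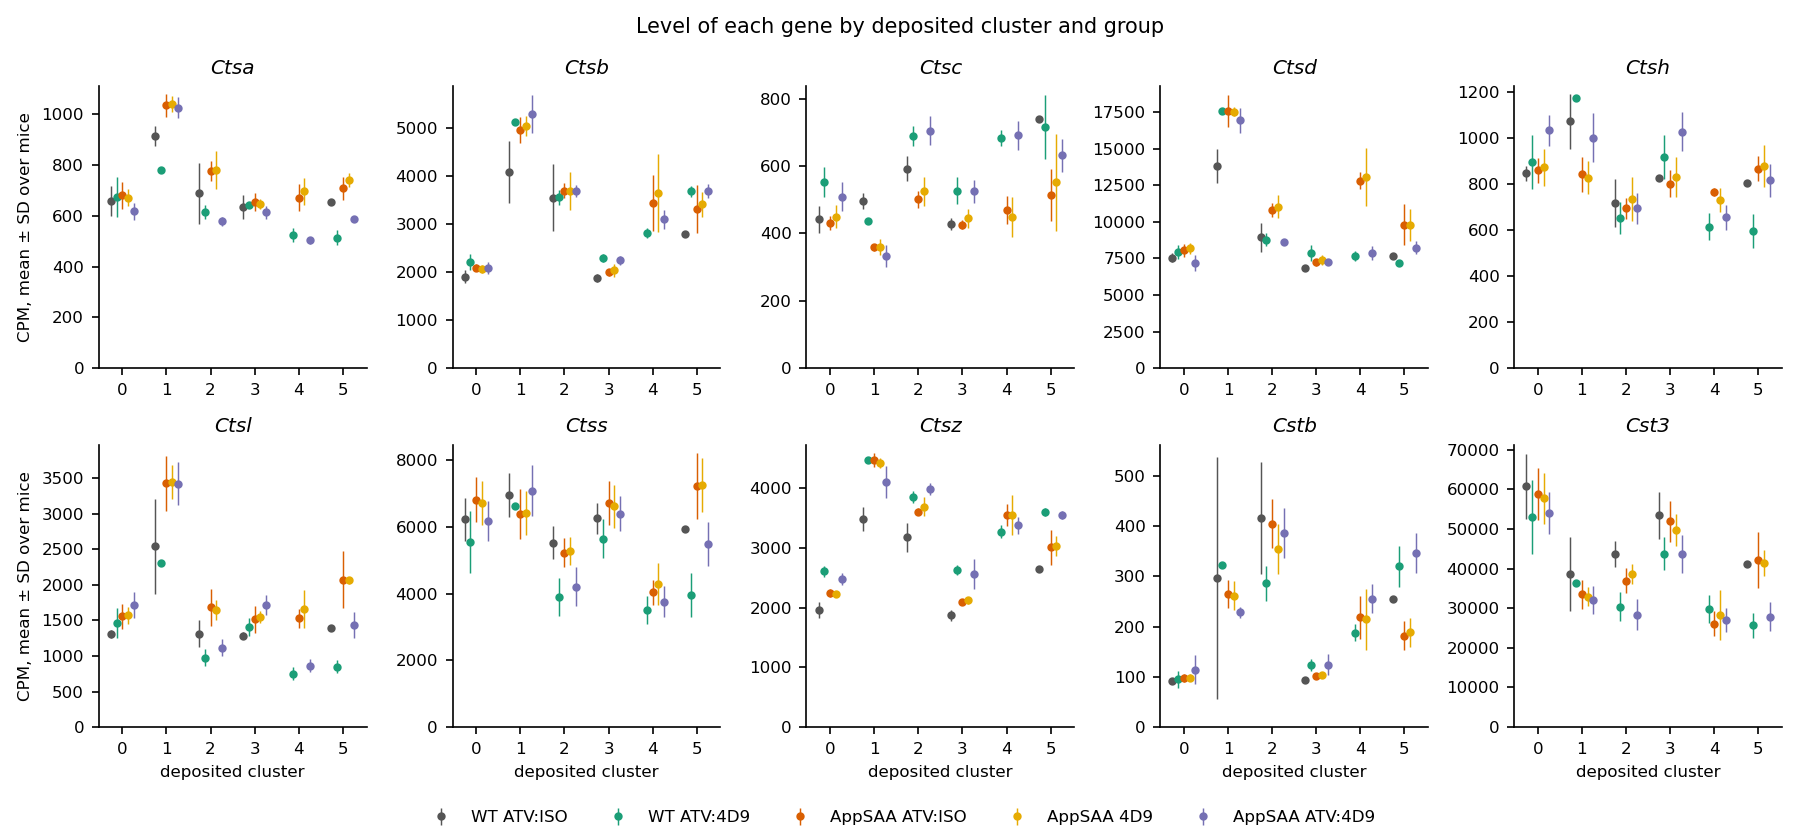
CPM of each of the 10 genes (y axis, linear from 0) in each deposited cluster (x axis) and group (colour), with points for the mean and bars for the SD over mice that had at least 20 cells in the cluster, and no bar where 1 mouse qualified. Ctsa, Ctsb, Ctsd, Ctsl and Ctsz were highest in cluster 1, and Cst3 was highest in cluster 0.

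Over all mice with at least 20 cells in a cluster, cluster 1 had the highest mean CPM for 7 of the 8 cathepsins. Ctsd had 16710 ± 1648 CPM there (SD, n = 16 mice) against 7328 ± 441.7 in cluster 3 (n = 20), Ctsl 3195 ± 550.1 against 1201 ± 435.2 in cluster 4 (n = 16), Ctsb 4911 ± 538.5 against 2072 ± 148.0 in cluster 0 (n = 20), and Ctsz 4182 ± 409.9 against 2257 ± 320.4 in cluster 3. Ctsc ran the other way, lowest in cluster 1 (383.7 ± 64.43) and highest in cluster 5 (611.6 ± 119.7, n = 17). Ctsh varied least, from 693.0 ± 75.1 in cluster 4 to 944.4 ± 143.2 in cluster 1. Cstb was highest in cluster 2 (369.6 ± 74.97) and lowest in cluster 0 (99.42 ± 16.01). Cst3 was highest in cluster 0 (56840 ± 7130) and lowest in cluster 4 (27810 ± 4025). The mice that qualified differed between clusters.

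Group differences were then tested, as CPM only, among cells of the same cluster, in clusters where at least 3 mice of both groups had 20 or more cells. Cells had been placed in clusters by their expression, so these tests hold only given that assignment. They cannot separate a change within cells from a change in the cluster to which cells were assigned. In WT mice given ATV:ISO, clusters 1 and 2 held 1.412% and 1.345% of cells. For AppSAA against WT mice under ATV:ISO, none of the 10 genes was called in clusters 0, 1, 2 or 3, where 0.274%, 1.21%, 0.281% and 0.189% of all genes were called, and the log2 fold changes lay between -0.42 and 0.47. Over all microglia the 6 called genes had changed by 0.58 to 1.11. In cluster 1, 3 WT mice qualified. There Ctsd had 13820 ± 1173 CPM in WT and 17570 ± 1111 CPM in AppSAA mice, and Ctsl 2540 ± 671.2 and 3428 ± 383.5 CPM. With WT ATV:ISO replicate 2 left out of cluster 1, Ctsl (0.78, adjusted p = 0.0366), Ctsz (0.54, adjusted p = 0.0335) and Cstb (0.88, adjusted p = 0.0372) were called higher. That mouse had 575.3 CPM of Cstb in this cluster, and with it Cstb was at a negative log2 fold change. Small differences were called in all 4 clusters with the pool as a block, which called 4.61%, 2.68%, 1.33% and 1.64% of all genes in clusters 0, 1, 2 and 3. In cluster 0 these were Ctsl (0.27, adjusted p = 0.000337), Ctsz (0.22, adjusted p = 0.00091) and Ctsb (0.17, adjusted p = 0.0476). In cluster 1 they were Ctsz (0.41, adjusted p = 0.0209) and Ctsc (-0.42, adjusted p = 0.0222), in cluster 2 Ctsl (0.41, adjusted p = 0.0134) and Ctsd (0.33, adjusted p = 0.0158), and in cluster 3 Ctsl (0.25, adjusted p = 0.0248).

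ATV:4D9 in WT mice was tested within clusters 0, 2 and 3, where 1.47%, 5.88% and 6.17% of all genes were called. In WT mice given ATV:4D9, clusters 0 and 3 held only 3.109% and 4.562% of cells. In the homeostatic-like cluster 3, 5 of the 10 rose. Ctsz had 1874 ± 90.1 CPM with ATV:ISO and 2636 ± 81.89 CPM with ATV:4D9 (0.59 ± 0.09, edgeR adjusted p = 0.000161). Cstb (0.49), Ctsc (0.40), Ctsb (0.39) and Ctsd (0.30) followed. In cluster 0, Ctsz was called (0.45 ± 0.09, edgeR adjusted p = 0.00553). In cluster 2, Cst3 fell from 43690 ± 3211 to 30380 ± 3627 CPM (-0.51 ± 0.12, edgeR adjusted p = 0.00969), Ctss was lower (-0.49 ± 0.13, edgeR adjusted p = 0.021) and Ctsz higher (0.30 ± 0.09, edgeR adjusted p = 0.0475). The Ctsd call in cluster 3 was lost without any 1 of 5 mice (WT ATV:ISO replicates 2, 3 and 4, WT ATV:4D9 replicates 1 and 4, adjusted p 0.0897 to 0.124). The Ctss call in cluster 2 was lost without WT ATV:ISO replicate 1 or 2 or WT ATV:4D9 replicate 3 or 4 (adjusted p 0.0557 to 0.0819), and the Ctsz call in cluster 2 without any 1 of 13 mice (adjusted p 0.0539 to 0.148). In cluster 2, Cstb was at -0.51 (adjusted p = 0.0798) and Ctsl at -0.41 (adjusted p = 0.0658). Both were called lower without WT ATV:ISO replicate 4 (adjusted p = 0.0372 and at most 0.0468), and Ctsl also without AppSAA ATV:ISO replicate 2. In cluster 0, Ctsc was called without WT ATV:ISO replicate 1 (0.42, adjusted p = 0.0332). With the pool as a block, Ctsb (0.27, adjusted p = 0.000573), Ctsc (0.36, adjusted p = 4.4e-06) and Ctsl (0.21, adjusted p = 0.0105) were also called higher in cluster 0. The same held for Ctsh (0.24, adjusted p = 0.00279) and Ctsl (0.22, adjusted p = 0.0135) in cluster 3, and Cstb (-0.50, adjusted p = 0.0238) and Ctsl (-0.41, adjusted p = 0.00186) were called lower in cluster 2. The block called 8.96%, 11.0% and 17.5% of all genes in clusters 0, 2 and 3. With the block Ctsl was thus higher in clusters 0 and 3 and lower in cluster 2, as it was over all microglia.

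ATV:4D9 in AppSAA mice was tested in all 6 clusters. Clusters 0 and 3 held 30.84% and 25.13% of cells with ATV:ISO, but 2.517% and 3.776% with ATV:4D9. Clusters 2 and 5 held 2.338% and 2.481% with ATV:ISO. None of the 10 was called in clusters 0 and 1, where 0.667% and 1.51% of all genes were called. In the plaque-associated-like cluster 1 the log2 fold changes lay between -0.16 and 0.30, and Ctsl had 3428 ± 383.5 CPM with ATV:ISO and 3424 ± 305.3 CPM with ATV:4D9. Elsewhere genes moved. The cycling-like cluster 4 held 0.949% of cells in AppSAA mice given ATV:ISO and 22.35% with ATV:4D9. Too few mice given ATV:ISO had 50 cells there to fit this comparison with at least 50 cells per sum. In cluster 4, where 24.5% of all genes were called, Ctsl fell from 1531 ± 131.4 to 863.5 ± 93.64 CPM (-0.84 ± 0.12, edgeR adjusted p = 2.79e-05). Ctsd fell there from 12820 ± 591.4 to 7875 ± 457.8 CPM (-0.71 ± 0.10, edgeR adjusted p = 1.57e-05), Ctsa was lower (-0.42) and Ctsc rose from 469.6 ± 42.68 to 691.2 ± 42.75 CPM (0.55 ± 0.10, edgeR adjusted p = 0.000363). In cluster 2 (13.2% of all genes called), Ctsc rose (0.54) and Ctsl (-0.55) and Ctsa (-0.38) fell. In cluster 3 (4.33%), 5 genes rose and none fell, which were Ctsh (0.48), Ctsc (0.42), Ctsz (0.42), Cstb (0.38) and Ctsb (0.29). In the interferon-like cluster 5 (29.7%), Cstb rose from 181.9 ± 28.39 to 347.2 ± 39.85 CPM (1.03 ± 0.15, edgeR adjusted p = 1.46e-05). Ctsc (0.42) and Ctsz (0.34) rose with it, and Cst3 (-0.50) and Ctsl (-0.43) fell. With at least 50 cells per sum, which called 28.1% of all genes, Cst3 (-0.41, adjusted p = 0.0517) and Ctsz (0.28, adjusted p = 0.0645) lost their calls in cluster 5.

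Ctsc was thus called higher with ATV:4D9 in 4 of the 6 clusters of AppSAA mice, and Ctsl lower in 3. Several of these calls rested on single mice. In cluster 3, Cstb, Ctsb and Ctsh were lost without any 1 of 6, 7 and 2 mice (adjusted p up to 0.179, 0.136 and 0.0517), and Ctsl was called higher without AppSAA ATV:ISO replicate 2 (0.41, adjusted p = 0.0222). In cluster 5, Ctsc was lost without AppSAA ATV:ISO replicate 2, 3 or 4 or AppSAA ATV:4D9 replicate 1 (adjusted p 0.0903 to 0.133), Ctsl without AppSAA ATV:ISO replicate 2 (adjusted p = 0.0763) and Ctsz without AppSAA ATV:ISO replicate 3 (adjusted p = 0.0556). In cluster 2, Ctsa was lost without AppSAA ATV:ISO replicate 1 or AppSAA ATV:4D9 replicate 3 (adjusted p 0.0555 to 0.0577), Cst3 was called lower without WT ATV:4D9 replicate 1 or AppSAA ATV:4D9 replicate 2 (adjusted p 0.0224 to 0.0488), and Ctsd without WT ATV:ISO replicate 1 (adjusted p = 0.0424). In cluster 4, Ctsh was called lower without WT ATV:4D9 replicate 1 (-0.26, adjusted p = 0.0476). When the pool was a block, Ctsc (0.28, adjusted p = 0.000957), Ctsh (0.34, adjusted p = 2.75e-05), Ctsl (0.19, adjusted p = 0.0351) and Ctsz (0.20, adjusted p = 0.00818) were called higher in cluster 0. Cst3 (-0.34, adjusted p = 0.000889), Ctsd (-0.28, adjusted p = 0.00433) and Ctss (-0.28, adjusted p = 0.00391) were called lower and Ctsz (0.19, adjusted p = 0.0479) higher in cluster 2. The block also added Ctsl in cluster 3 (0.30, adjusted p = 0.000915), Ctsh in cluster 4 (-0.24, adjusted p = 0.018), and Ctss (-0.29, adjusted p = 0.0106) and Ctsb (0.27, adjusted p = 0.0427) in cluster 5. None of the 10 was called in cluster 1 with the block, which called 5.27%, 7.77%, 24.8%, 12.6%, 30.1% and 37.2% of all genes in clusters 0 to 5. With the block Ctsl was therefore higher in clusters 0 and 3, the opposite of its direction over all microglia.

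Under ATV:4D9, AppSAA and WT mice were compared in clusters 0, 2, 3, 4 and 5, where 0.154%, 2.07%, 0.163%, 2.76% and 6.87% of all genes were called. Calls were made in cluster 5 alone, which held 4.209% of cells in WT and 22.4% in AppSAA mice. There Ctsl had 851.8 ± 84.67 CPM in WT and 1433 ± 179.0 CPM in AppSAA mice (0.83 ± 0.12, edgeR adjusted p = 0.000104), and Ctss (0.55 ± 0.14, edgeR adjusted p = 0.0117) and Ctsh (0.53 ± 0.11, edgeR adjusted p = 0.00362) were higher too. The Ctss call was lost without WT ATV:4D9 replicate 3 or 4 or AppSAA ATV:4D9 replicate 2 (adjusted p 0.0536 to 0.0613). Cstb was called in cluster 2 without WT ATV:4D9 replicate 1 (0.62, adjusted p = 0.0405), and in cluster 4 without WT ATV:4D9 replicate 1 or AppSAA 4D9 replicate 1 (adjusted p 0.0237 to 0.0407). With at least 50 cells per sum it was called in both, in cluster 2 at 0.52 (adjusted p = 0.0464, 2.35% of all genes called) and in cluster 4 at 0.53 (adjusted p = 0.0413, 2.53% of all genes called). The block also made Ctsl called higher in the other 4 clusters, at 0.26 to 0.34 (adjusted p = 0.00902, 0.0276, 0.00375 and 0.0216 in clusters 0, 2, 3 and 4). Cstb was added in clusters 2 (0.50, adjusted p = 0.00652) and 4 (0.53, adjusted p = 0.00645), Ctsh (0.26, adjusted p = 0.00577) and Ctss (0.21, adjusted p = 0.0456) in cluster 0, Ctss in cluster 3 (0.23, adjusted p = 0.0431), and Ctsa in cluster 5 (0.27, adjusted p = 0.0214). It called 1.86%, 7.38%, 1.7%, 9.79% and 15.8% of all genes in clusters 0, 2, 3, 4 and 5.

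**Figure D5:**
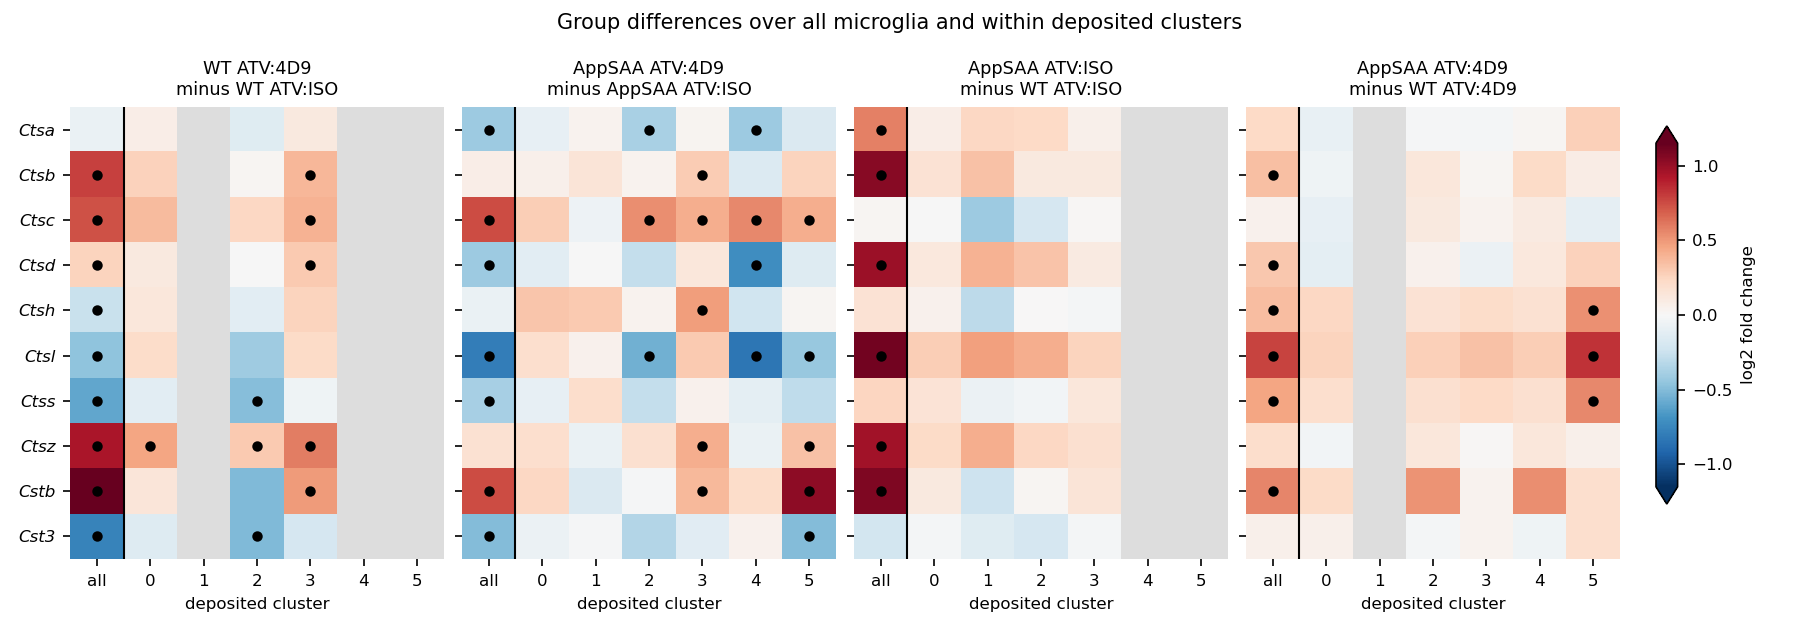
Log2 fold changes (colour, red higher and blue lower) of the 10 genes (rows) over all microglia (first column) and within each deposited cluster (other columns), in 4 group comparisons. Black dots mark genes called at an adjusted p under 0.05 without the pool block and grey marks comparisons with too few mice, and the AppSAA minus WT panel under ATV:ISO has dots in the first column and none within clusters.

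Other genes of the pathway were counted from fixed lists. Of 6 other cathepsins, 4 passed the count filter. As CPM, 2 were called higher and 1 lower for AppSAA against WT mice under ATV:ISO, beside 14.4% and 13.7% of all genes. With ATV:4D9, 0 were higher and 2 lower in WT mice, beside 30.8% and 32.5%, and likewise 0 and 2 in AppSAA mice, beside 27.9% and 27.1%. For AppSAA against WT mice under ATV:4D9, 1 was higher and 0 lower, beside 7.84% and 3.98%. Per cell none of the 4 was called lower in these comparisons. Called higher were 2 for AppSAA against WT mice under ATV:ISO (beside 22.9% of all genes), 2 with ATV:4D9 in WT mice (68.2%), 1 with ATV:4D9 in AppSAA mice (52.1%) and 1 for AppSAA against WT mice under ATV:4D9 (3.53%). Ctse, an aspartic protease, was very low but higher in AppSAA than in WT mice under ATV:ISO (0.405 ± 0.127 and 4.91 ± 1.29 CPM, log2 fold change 3.77 ± 0.35, edgeR adjusted p = 6.84e-08). As CPM it was lower with ATV:4D9 than with ATV:ISO in AppSAA mice (-1.21 ± 0.25, edgeR adjusted p = 0.000419), a call absent per cell (-0.71 ± 0.30, edgeR adjusted p = 0.0553), and still higher than in WT mice given ATV:4D9 (3.36 ± 0.32, edgeR adjusted p = 5.14e-07). Ctsw was also very low and higher in AppSAA mice under ATV:ISO (0.518 ± 0.0812 and 1.285 ± 0.252 CPM, edgeR adjusted p = 0.0198). Per cell Ctsw was called higher there (1.74) and with ATV:4D9 in WT mice (1.62 ± 0.38, edgeR adjusted p = 0.000823). Ctso, a cysteine protease, was lower as CPM in AppSAA than in WT mice under ATV:ISO (-0.20 ± 0.07, edgeR adjusted p = 0.0288) and with ATV:4D9 in WT mice (-0.26 ± 0.07, edgeR adjusted p = 0.00178), but not per cell, where it was at 0.04 and called higher at 0.58. In AppSAA mice it was called higher per cell with ATV:4D9 (0.44 ± 0.10, edgeR adjusted p = 0.000957). Ctsf, also a cysteine protease, was lower as CPM with ATV:4D9 in WT (-0.84) and in AppSAA mice (-0.58), while its UMIs per cell stayed between 2.08 and 2.19 in all group means. Of 9 other cystatins, only Cst7 (cystatin F, an inhibitor carried to lysosomes that acts on Ctsc and Ctsl) passed the filter. Cst7 had 111.9 ± 8.91 CPM in WT given ATV:ISO, 263.3 ± 30.3 in WT given ATV:4D9, 1568 ± 172.8 in AppSAA given ATV:ISO, 1624 ± 112.5 in AppSAA given 4D9 and 895.8 ± 176.5 in AppSAA given ATV:4D9. As CPM it therefore rose with ATV:4D9 in WT mice (1.36 ± 0.12, edgeR adjusted p = 8.54e-09) and fell with it in AppSAA mice (-0.75 ± 0.12, edgeR adjusted p = 2.74e-05), and the difference between these effects was called (-2.11 ± 0.17, edgeR adjusted p = 4.14e-07). Per cell the rise in WT mice (2.21 ± 0.16, edgeR adjusted p = 1.34e-10) and the difference between the effects (-2.45 ± 0.21, edgeR adjusted p = 1.16e-06) were called, and the change in AppSAA mice was not (-0.24 ± 0.15, edgeR adjusted p = 0.178).

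A list of 14 genes for delivery, activation and partners of lysosomal enzymes was measured in full. As CPM, 5 rose and 6 fell with ATV:4D9 in WT mice, where 30.8% and 32.5% of all genes were called higher and lower. In AppSAA mice 2 rose and 7 fell, beside 27.9% and 27.1%. Per cell the counts were 10 higher and 0 lower in WT mice and 8 higher and 0 lower in AppSAA mice, beside 68.2% and 52.1% of all genes called higher. The cation-dependent mannose 6-phosphate receptor M6pr rose in both genotypes (0.42 and 0.50 on the log2 CPM scale, and 1.26 and 1.00 per cell). The larger receptor Igf2r also rose (2.04 and 2.07), from under 1 CPM in both ATV:ISO groups. The regulators Mitf (-0.95 and -0.84), Tfe3 (-0.83 and -0.55) and Tfeb (-0.46 and -0.28) fell as CPM in both genotypes, as did the sorting receptor Sort1 (-0.84 and -0.70). None of these 4 was called lower per cell. There Mitf was at -0.12 and -0.34, Tfe3 at 0.01 and -0.05 and Sort1 at 0.00 and -0.20, and Tfeb was called higher in WT (0.38 ± 0.13, edgeR adjusted p = 0.0143) and not in AppSAA mice (0.21, edgeR adjusted p = 0.173). M6pr, Tfe3, Tfeb and Grn are named for their roles, and they and Ctso were chosen after their values were seen. For AppSAA against WT mice under ATV:ISO, 4 of the 14 rose and 2 fell as CPM, beside 14.4% and 13.7% of all genes, and 7 were higher and 0 lower per cell, beside 22.9% and 1.49%. The beta-galactosidase Glb1 (1.01 ± 0.07, edgeR adjusted p = 1.12e-09), Gnptab (0.92), which makes the mannose 6-phosphate tag, progranulin Grn (0.55) and Gnptg (0.42, edgeR adjusted p = 0.000855) were higher, and Sort1 (-0.31) and Tfeb (-0.26) were lower. Under ATV:4D9, 4 of the 14 were higher as CPM in AppSAA than in WT mice, beside 7.84% of all genes. These were Neu1 (0.59), Gnptab (0.45), Glb1 (0.39) and Grn (0.34). Per cell, 1 of the 14 was called, Neu1 (0.47, edgeR adjusted p = 0.0237), beside 3.53% of all genes called higher. With ATV:4D9, Neu1 fell as CPM by more in WT (-0.59, edgeR adjusted p = 4.66e-07) than in AppSAA mice (-0.18, edgeR adjusted p = 0.0332). The difference between these effects was called (0.41 ± 0.10, edgeR adjusted p = 0.012). Per cell Neu1 was not called with ATV:4D9 in WT (0.26) and was called higher in AppSAA mice (0.32). Between the genotypes under ATV:ISO it was not called as CPM (0.18) but was per cell (0.41). For 4D9 against ATV:ISO none of the 14 was called.

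The 10 genes did not share 1 pattern over the 5 groups. The group means on the TMM log2 CPM scale spanned 1.81 for Cstb, 1.6 for Ctsl, 1.14 for Ctsz, 1.12 for Ctsb, 1.01 for Ctsd, 0.843 for Ctss, 0.766 for Ctsc, 0.765 for Cst3, 0.669 for Ctsa and 0.446 for Ctsh. Likeness was measured as the root mean square difference between 2 centred profiles of 5 group means. Ctsb and Ctsz were the most alike pair (0.092), followed by Ctsa and Ctsd (0.16), and Ctsc and Ctsl were the least alike (0.88). Among 3065 genes with a mean of at least 50 CPM, profiles among the nearest to Cstb were Bcl2a1a (0.11) and Ccl3 (0.12). Those nearest to Ctsl were Gas5 (0.14), Pld3 (0.15) and Zfas1 (0.15), and among those nearest to Ctsz were Rpl32 (0.035) and Rack1 (0.041). These are descriptions over 5 groups and carry no test.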

How the data were processed

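Reads were aligned by the authors with Cell Ranger 6.1.1 (mm10 build), and tags assigned each cell to a mouse before clustering in Seurat. They deposited a matrix of UMI counts without normalization and an annotation giving mouse, group, pool and cluster of each cell, with the deposited percent of mitochondrial UMIs, which was not used in any test. Filters applied before deposit were not given in the sources used here. All 74758 cells were kept and no doublet caller was run. 543 barcodes occurred in more than 1 pool (1089 cells, 1.46%). Counts were added up over the cells of a mouse, and separately over its cells of a cluster when these numbered 20 or more. The quasi-likelihood test of edgeR 4.0.16 (R 4.3.3) was fitted to all 20 mice, with filterByExpr, TMM and group as the factor, and p-values were adjusted over all genes. A second fit scaled by cell number gave UMIs per cell. Clusters were fitted separately and as CPM only, so no per-cell test was run within clusters.

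Each pool held 1 mouse of every group per the labels. Deviations from group means correlated within pools in all 40 pairs (0.116 to 0.537, median 0.34), so pool as a block is given where it changes a call of the 10 genes. The median between pools was -0.165. With positive values within pools, centring on group means makes those between pools negative on average. The median between pools is therefore no separate evidence. Calls of the other pathway genes were not examined under the block or the other alternatives. Alternatives were RLE scaling, no count filter, DESeq2 1.42.0, limma-voom 3.58.1, a window of 1000 to 25000 UMIs per cell, at least 50 cells per sum, leaving out each mouse, and, chosen after seeing the data, library totals. All 10 genes are named in every group comparison over all microglia, and of the other pathway genes up to 5 called genes with the largest change. Some of the genes with the most similar profiles are not reported here. The genes, lists and tests were chosen with earlier results of these data known. Whether the 4 mice of a group came from separate litters was not stated.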

Additional observations from a re-analysis of the deposited data

Results flagged for a closer look

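The effect of ATV:4D9 differed between WT and AppSAA mice, by the interaction test described above, for Ctsz (-0.761 on the log2 CPM scale), Ctsb (-0.706) and Ctsd (-0.671). Per cell, it differed for Ctsz (-1.108), Ctsb (-1.056), Ctsd (-1.016), Cstb (-0.861), Ctsa (-0.693) and Ctsl (-0.664). In each case the change in AppSAA mice was less positive than in WT mice.

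In 2 of 50 sets of 4 mice, 1 per gene and group, a mouse stood apart from the others of its group by Dixon's criterion, and chance gives about 1 in 20. AppSAA mice given ATV:4D9 had 34660 CPM of Cst3 in replicate 2, the highest of the 4. WT mice given ATV:ISO had 1880 CPM of Ctsb in replicate 2, the lowest of the 4.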

How the results depend on the processing

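Of 1890 alternative values over all microglia, 48 lost and 26 gained a call, and 1 that had not been called was called with the opposite sign (a reversal). For UMIs per cell 1470 values gave 12 lost and 9 gained, and within clusters 3820 values gave 1 reversal, 51 lost and 54 gained. The reversals were Ctsc in AppSAA against WT under ATV:ISO with library totals (-0.164), and Cstb in the same comparison within cluster 1, which was -0.55 to 0.88 when 1 mouse was left out. The number of genes called was moved by the pool as a replicate block, to 7166 for AppSAA against WT under ATV:ISO, 4409 for AppSAA against WT under ATV:4D9 and 4284 for the interaction, where 9 of the 10 were called. Per cell the block called 6 of the 10 for AppSAA against WT under ATV:4D9. Library totals gave 6787 and 2993 genes for the first pair. Leaving out 1 mouse gave 1103 to 1719 genes and 3 to 7 of the 10 for AppSAA against WT under ATV:4D9. DESeq2 called 1 gene for 4D9 against ATV:ISO.

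Within clusters, the block called 4, 3, 3 and 4 of the 10 in cluster 0 (ATV:4D9 against ATV:ISO in AppSAA, AppSAA against WT under ATV:4D9 and under ATV:ISO, ATV:4D9 against ATV:ISO in WT), and 7, 2, 2 and 5 in cluster 2 in the same order. Of all genes it called 5.27%, 1.86%, 4.61% and 8.96% in cluster 0 and 24.8%, 7.38%, 1.33% and 11.0% in cluster 2. AppSAA against WT under ATV:ISO gave 2 in cluster 1 and 1 in cluster 3 (2.68% and 1.64% of all genes), and under ATV:4D9 2 in cluster 3 and 2 in cluster 4 (1.7% and 9.79%). The block changed no other call than those given beside the results above. RLE scaling called 2 in cluster 0 for ATV:4D9 in WT, adding Ctsc (adjusted p = 0.0494), and 2 in cluster 2, losing Ctsz (adjusted p = 0.0605). At least 50 cells per sum gave 1 (Cstb) for AppSAA against WT under ATV:4D9 in clusters 2 and 4, and 3 for ATV:4D9 in AppSAA in cluster 5, where Cst3 and Ctsz were lost. Too few mice had 50 cells to fit it for ATV:4D9 in AppSAA in clusters 0 and 4 and in WT in cluster 2. The same held for AppSAA against WT under ATV:4D9 in cluster 0 and under ATV:ISO in clusters 1 and 2. Leaving out 1 mouse gave 1 to 2 for ATV:4D9 in WT in cluster 0 and 1 to 4 in cluster 2, 0 to 3 for AppSAA against WT under ATV:ISO in cluster 1, 0 to 1 under ATV:4D9 in clusters 2 and 4, 2 to 5 for ATV:4D9 in AppSAA in cluster 3 and 3 to 5 in cluster 5. The Ctsh call for ATV:4D9 in WT mice was also lost with RLE (adjusted p = 0.0947), DESeq2 (0.0832), no count filter (0.19) and the UMI window (0.143). Ctsh (0.0516) and Ctss (0.0502) lost their calls with RLE for AppSAA against WT under ATV:4D9. With the UMI window, Ctss lost its call (0.0869) and Ctsz gained one (0.0151) for ATV:4D9 against ATV:ISO in AppSAA mice, as they did against 4D9 (0.0942 and 0.0187). Ctsz gained one against ATV:ISO with DESeq2 too (0.0465). The cause of these changes was not tested. With 4 mice per group, differences near the threshold depend on single mice, and clusters with few cells per mouse limit the within-cluster tests.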
